A study of Mus musculus with 4 samples.

Results

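The cells described here are Olfm4-positive progenitors of the mouse intestinal epithelium at embryonic day 17.5 (E17.5). They were chosen from a single-cell RNA library by gates on each cell's UMIs, unique molecular identifiers that each stand for 1 captured RNA molecule. A cell needed at least 500 detected genes, at most 20% mitochondrial UMIs, at least 10000 UMIs in all and at least 5 UMIs of Olfm4. It also had to hold under 1% of its UMIs in Apoa1, Apoa4, Apoc3, Fabp1 and Fabp2 together, under 0.1% in Chga and Chgb together, and fewer than 3 Muc2 UMIs. These gates passed 272 of the 2504 E17.5 cells that had the same quality and depth and at least 1 Epcam UMI, or 10.9% (exact Clopper-Pearson 95% interval 9.67% to 12.1%). The 2504 cells came from 5232 E17.5 barcodes, and the whole series held 22731 barcodes.

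The study compared Bmi1-GFP intestinal epithelial cells of 4 groups with 1 library each: E12.5, E17.5, adult and irradiated adult. All 4 groups carried the Bmi1-GFP genotype, a reporter allele at the Bmi1 locus, and all were intestinal epithelium isolated by flow sorting, with the developmental tissue after E12.5 taken from the small intestine. The ages of the adults, the irradiation dose, the time after it, the number of animals and the width of the sorting gate are not given in the labels. With 1 library per group there was no test between groups, and the intervals below cover counting error only. Because Olfm4 and the gated genes chose the cells, every level within E17.5 is a description.

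Olfm4 encodes olfactomedin 4, a secreted glycoprotein known as a marker of crypt base columnar stem cells, the cycling stem cells at the bottom of the adult crypt. Those cells depend on Wnt signals, which are amplified by the receptor Lgr5 and read out by targets such as Ascl2 and Axin2, and on Notch signals, which hold back the secretory fate. Before birth the small intestine has villi but no crypts, and proliferating cells lie between the villi, where Olfm4 comes on late in gestation.

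Several features of the libraries bear on the comparisons. The E17.5 library held 77677622 UMIs, against 38648331 to 90674425 over all 4 libraries, and any pair of libraries shared 6 to 12 barcodes. Of the 272 cells, 2 had a barcode that also occurred in another library. Of the other E17.5 epithelial cells at the same depth, many carried markers of pancreas. In 356 cells that passed quality and depth, pancreatic acinar enzymes made up at least 1% of UMIs. The Olfm4-positive cells had 182 UMIs per 1000000 (CPM) of the 9 acinar genes in sum, with a median of 71.7 CPM per cell, and all other epithelial cells had 11640 CPM. In the mesenchymal list the sums were 10.6 and 98.1 CPM, and in the endothelial and immune lists both groups were under 1 CPM. The part of such cells in a result was not tested, so each comparison is also given with an Olfm4-low gut set. That set holds the 975 of 1329 cells that passed every other gate, had at most 4 Olfm4 UMIs and did not pass marker gates for acinar, islet, mesenchymal or red blood cells. The marker gates were set after the values were seen, and 1 Olfm4-positive cell passed them, with 1.94% acinar UMIs.

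The label's markers are Olfm4, Slc12a2 and Cdca7. Olfm4 was itself gated at 5 UMIs, so only Slc12a2 and Cdca7 could check the label. Olfm4 ranged from 5 to 65 UMIs per cell, with a median of 11 and quartiles of 7 and 19, and 3 cells had 50 or more. Slc12a2, the basolateral sodium, potassium and chloride cotransporter that is high in crypt cells, was present in all but 3 cells. Cdca7, a MYC and E2F target tied to DNA methylation upkeep, was absent from 18, and 252 cells had both. Cells were then drawn down to an equal depth of 10000 UMIs each (thinning), after which Slc12a2 was found in 88.2% of the Olfm4-positive cells (83.8% to 91.8%) and 47.0% of the Olfm4-low gut cells. The share in acinar cells was 29.8%, and the part of RNA from outside the cell in it was not tested. For Cdca7 the 3 shares were 66.5%, 39.9% and 8.15%. Both markers were therefore more often found in the chosen cells than in either comparison set. All 272 cells held Epcam, an adhesion protein of epithelia, at 18 to 174 UMIs with a median of 80.

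**Figure D1:**
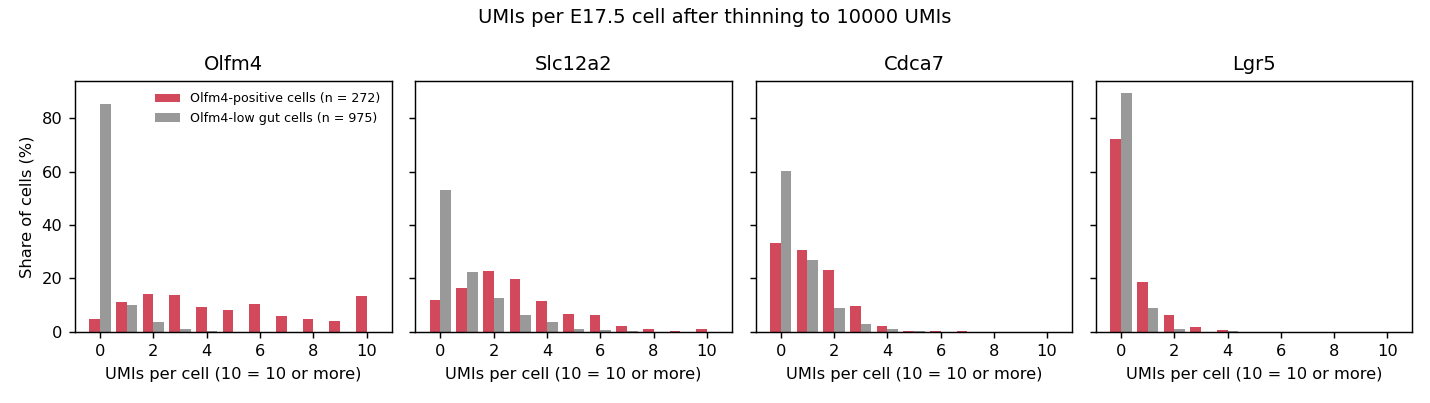
UMIs per cell (x axis, after thinning to 10000 UMIs) of Olfm4, Slc12a2, Cdca7 and Lgr5 against the share of cells in percent (y axis), for 272 Olfm4-positive cells and 975 Olfm4-low gut cells. Slc12a2 was at 0 in few of the Olfm4-positive cells, whereas most cells of both sets had no Lgr5 UMI at this depth.

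RefSeq start-site windows of GRCm38.p6, from 250 bases before the start to 50 after it, were searched for 8 genes of the results, and 5 had an entry: Olfm4, Cdca7, Ascl2, Axin2 and Clca3b. Lgr5, Smoc2 and Slc12a2 are named only. The windows of Olfm4 (chr14:80000052-80000351, plus strand) and Cdca7 (chr2:72475969-72476268, plus strand) are shown because they are the marker genes of the label and the only ones of the 5 with the core letters bound by RBPJ, the DNA-binding partner of Notch. Capitals mark that core, TGGGAA or its reverse complement TTCCCA, which begins 12 bases before the start in Olfm4 and 227 before it in Cdca7.
Olfm4: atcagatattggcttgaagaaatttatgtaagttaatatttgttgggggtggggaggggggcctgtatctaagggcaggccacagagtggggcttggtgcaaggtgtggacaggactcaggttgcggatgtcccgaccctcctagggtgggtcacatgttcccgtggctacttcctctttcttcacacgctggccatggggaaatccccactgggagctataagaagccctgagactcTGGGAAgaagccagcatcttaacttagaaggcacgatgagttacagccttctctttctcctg
Cdca7: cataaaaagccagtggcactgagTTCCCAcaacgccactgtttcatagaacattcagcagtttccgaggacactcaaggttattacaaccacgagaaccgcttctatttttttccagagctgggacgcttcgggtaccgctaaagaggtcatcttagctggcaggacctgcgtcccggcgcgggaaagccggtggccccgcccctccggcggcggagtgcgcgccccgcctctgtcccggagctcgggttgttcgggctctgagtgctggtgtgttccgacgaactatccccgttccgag
The core stood in 25.4% of 32544 windows of the same length, on either strand. The TCF/LEF core, CTTTGA or TCAAAG, which stands in 16.0% of windows, was in none of the 5. A match of these letters is a description and not a binding site.

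Genes of crypt stem cells and Wnt targets were higher in the Olfm4-positive cells. Lgr5, the R-spondin receptor that defines crypt base columnar cells, was at 43.2 CPM (exact Poisson 95% interval 38.9 to 47.8), against 8.82 CPM in all other epithelial cells and 13.4 CPM (12.05 to 14.8) in the Olfm4-low gut cells. Smoc2, a matricellular protein of the stem cell zone, was at 58.4 CPM against 9.79 and 11.1 CPM. Ascl2, the transcription factor of the stem cell state, was at 39.8 CPM against 13.1 and 19.9 CPM. In each of the 3 genes the interval of the Olfm4-positive cells lay above that of the Olfm4-low gut cells. Axin2, a negative feedback regulator of Wnt, was at 34.2 CPM against 15.2 CPM in the Olfm4-low gut cells. Myb, a transcription factor of crypt progenitors that is not in the gene list used below, was at 42.9 against 19.1 CPM. Msi1, an RNA-binding protein used as a progenitor marker, was at 22.4 against 8.07 CPM.

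Few cells carried the 3 stem genes together at equal depth. After thinning, 68.0% (62.1% to 73.5%) of the Olfm4-positive cells had a UMI of Lgr5, Ascl2 or Smoc2, and 2.94% had all 3. With every UMI kept the shares were 91.5% and 33.8%. In the Olfm4-low gut cells 27.1% had any of the 3 after thinning, and 1.13% had all. Taken singly, Lgr5 was found in 27.6% and Smoc2 in 39.3% of the thinned Olfm4-positive cells. A low joint share at this depth therefore does not place the genes in different cells. The Olfm4-positive cells had a median of 30403.5 UMIs and 5333.5 genes, against 28267 UMIs and 5123 genes in the Olfm4-low gut cells, so the unthinned shares rest on unequal depth.

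Over the list of 30 crypt stem and Wnt target genes, 28 could be compared with all other epithelial cells, meaning that they held at least 50 UMIs in either set. Of these, 8 were at least 2-fold higher and 0 at least 2-fold lower, with a median log2 ratio of 0.72. Ratios are log2((CPM + 1)/(CPM + 1)) of UMIs summed over the cells of a set. Over all 12615 genes the median was -0.05, 0.523% were at least 2-fold higher and 11.1% lower. Against the Olfm4-low gut cells 24 genes of the list could be compared, of which 6 were 2-fold higher and 0 lower, with a median of 0.56. Over all 11045 genes of that comparison the median was -0.04, with 0.389% higher and 3.77% lower. Against all 1329 Olfm4-low cells, pancreatic cells included, 0.45% of 11550 genes were 2-fold higher and 6.5% lower. Lgr4, an R-spondin receptor, and Znrf3, a ligase that removes Wnt receptors, had overlapping intervals, at 83.1 against 82.8 CPM and 8.63 against 8.03 CPM in the Olfm4-low gut cells. Rnf43, a ligase of the same kind, was at 32.9 CPM (29.2 to 37.0) against 26.8 CPM (24.9 to 28.7). Lef1 and Notum had 0 UMIs in the Olfm4-positive cells, which allows up to 0.345 CPM by the limit of 3 counts.

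The genes with the highest ratios over the Olfm4-low gut cells, among those with at least 200 UMIs and a UMI in 10% of cells, were Smoc2 (log2 ratio 2.29), Clca3b (1.77), Cym (1.71), Lgr5 (1.62), Defa24 (1.60), Pigr (1.57), Slc12a2 (1.49), Gpx2 (1.43), Slc16a12 (1.36), Far2 (1.35), Aqp1 (1.33) and Tmprss2 (1.30). Against all other epithelial cells Rgcc (1.79), Dapk2 (1.74) and Klhl23 (1.71) joined the 12 highest, and Defa24, Slc16a12 and Tmprss2 were not among them. Gpx2, a glutathione peroxidase of gut epithelium, was at 372 CPM against 138 CPM in the Olfm4-low gut cells. After thinning it was found in 94.1% of Olfm4-positive and 56.4% of Olfm4-low gut cells. Clca3b, a member of the chloride channel accessory family, was at 94.4 against 26.9 CPM and in 57.0% against 20.2% of cells. Aqp1, a water channel, was at 40.2 against 15.4 CPM. Pigr, the receptor that carries polymeric immunoglobulin across epithelia, was at 82.0 against 26.9 CPM. Cps1, the first enzyme of the urea cycle, which also serves citrulline synthesis in the gut, was among the more abundant differences at 1276 CPM (1252 to 1300) against 854 CPM (843 to 865). Cym, the milk-clotting protease chymosin, was at 274 against 83.4 CPM, but 5 cells held 67.6% of its UMIs in the Olfm4-positive cells. Without the cell that held most it was at 150.4 CPM in them.

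The genes with the lowest ratios over all other epithelial cells were hormones and pancreatic enzymes: Ins1, Ins2, Gip, Nts, Iapp, Cel, Prss2, Cck, Ctrb1, Cpa1, Sst and Nnat. That reference held endocrine cells, which the gate on Chga and Chgb removed from the Olfm4-positive cells, and pancreatic cells. Against the Olfm4-low gut cells the 12 lowest were Spp1 (log2 ratio -6.31), Sst (-4.85), Clu (-4.42), Gip, Nts, Bicc1, Igfbp7, Ambp, Hhex, Cck, Clec2h and Sparc. After thinning, the hormone genes were found in shares of cells with overlapping intervals. These were 11.4% against 8.82% for Nts, 22.4% against 24.6% for Cck, 5.51% against 8.31% for Gip and 3.68% against 6.77% for Sst. Over the enteroendocrine list the median cell had 92.2 against 97.1 CPM, and the highest cell 36356 against 326015 CPM. Spp1, Clu, Bicc1 and Hhex are known from duct epithelium of liver and pancreas, and they were concentrated in few reference cells. Of the 975 Olfm4-low gut cells, 89 had at least 20 Spp1 UMIs, and they held 99.0% of that set's Spp1, 84.3% of its Clu, 89.6% of its Bicc1 and 79.5% of its Hhex UMIs. Those 89 cells had 1.37 CPM of Cdx1, an intestinal identity factor, against 119 CPM in the remaining 886. With the 89 cells left out of the reference the Clu ratio was -1.92 and that of Hhex -1.33. The limit of 20 UMIs was set on Spp1, so no ratio of Spp1 is given for this setting, and 1 Olfm4-positive cell with 28 Spp1 UMIs was kept. Without them the ratio was 2.26 for Smoc2, 1.57 for Lgr5, 1.44 for Slc12a2 and 0.86 for Cdca7, beside 2.29, 1.62, 1.49 and 0.89 with the cells kept. The share of genes 2-fold lower went from 3.77% to 2.25%, and that of genes 2-fold higher from 0.389% to 0.485%.

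Genes of absorptive cells that the gates did not use were lower. Of 18 compared with the Olfm4-low gut cells, 0 were 2-fold higher and 9 lower, and all 18 ratios were below 0, with a median of -1.02. Over all genes of that comparison 3.77% were 2-fold lower, with a median of -0.04. Enpep, the brush border aminopeptidase A, was at 6.79 CPM (5.17 to 8.76) against 53.6 CPM (50.9 to 56.3). Rbp2, which carries retinol in enterocytes, was at 32.2 against 90.9 CPM, and Alpi, intestinal alkaline phosphatase, at 19.2 against 43.9 CPM. Krt20, a keratin of mature villus cells, was at 3.11 against 19.8 CPM. Some absorptive genes remained well detected in the Olfm4-positive cells: Mttp, needed to load lipid on apolipoprotein B, was at 116 CPM and Vil1, an actin bundler of microvilli, at 128 CPM, against 179 and 156 CPM. Both sets had passed the same enterocyte gate.

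Genes of fetal growth showed an uneven pattern. Of 12 compared with the Olfm4-low gut cells, 5 were 2-fold lower and 0 higher, with a median of -0.39. Once the 89 Spp1-rich cells were left out, 3 of the 12 were 2-fold lower. Over all genes 3.77% were 2-fold lower with those cells and 2.25% without them, with medians of -0.04 and -0.01. H19, an imprinted fetal long RNA, was at 440.5 CPM (427 to 455) against 1092 CPM (1080 to 1104). Cdkn1c, the imprinted cell cycle inhibitor p57, was at 71.2 CPM (65.7 to 77.1) against 326 CPM (320 to 333). The fetal RNA-binding proteins differed less: Igf2bp1 was at 40.2 against 44.3 CPM, Igf2bp3 at 95.2 against 110 CPM, and the chromatin protein Hmga2 at 135 against 140 CPM. H19 and Cdkn1c were thus lower while the fetal RNA-binding proteins lay near the reference. Genes of regenerating and fetal-like epithelium were also lower, with 9 of 14 2-fold lower and a median of -1.20, and 6 of 13 and -0.81 without the Spp1-rich cells. S100a6, a calcium-binding protein of that list, was at 99.2 against 246 CPM either way.

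Proliferation genes were higher by small amounts that depended on the reference. All 17 S phase genes compared were above 0 in both comparisons, with a median of 0.73 over all other epithelial cells and 0.22 over the Olfm4-low gut cells, and 0 were 2-fold higher in either. The 15 G2/M genes had medians of 0.63 and 0.19. Of 16 ribosome biogenesis genes 16 and 15 were above 0, with medians of 0.57 and 0.22, and of 12 nucleotide and one-carbon synthesis genes 12 and 11, with medians of 0.53 and 0.21. Hells, a chromatin remodeller of dividing cells, was at 117 CPM against 88.2 CPM in the Olfm4-low gut cells, and Pcna, the replication clamp, at 185 against 159.8 CPM.

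Almost every Olfm4-positive cell carried G2/M transcripts. After thinning, 268 of 272 (98.5%, 96.3% to 99.6%) had at least 3 UMIs over the 15 G2/M genes, with a median of 28 such UMIs per thinned cell. The share was 87.7% (85.5% to 89.7%) in the Olfm4-low gut cells, 62.8% in all other epithelial cells, 35.7% in cells past the enterocyte gate, 26.4% in those past the chromogranin gate and 83.9% in those past the Muc2 gate. The gap to the Olfm4-low gut cells was thus smaller than that to the enterocyte and chromogranin sets. The interval of the Muc2 set, 74.8% to 90.7%, overlapped that of the Olfm4-low gut cells. Without thinning the shares were 99.6% and 93.1%. Olfm4-low gut cells with 3 to 4 Olfm4 UMIs had 98.8% after thinning, so the high share was not particular to cells past the gate. At the low threshold of 3 UMIs the share counts cells with G2/M RNA and not cells in G2 or M.

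**Figure D2:**
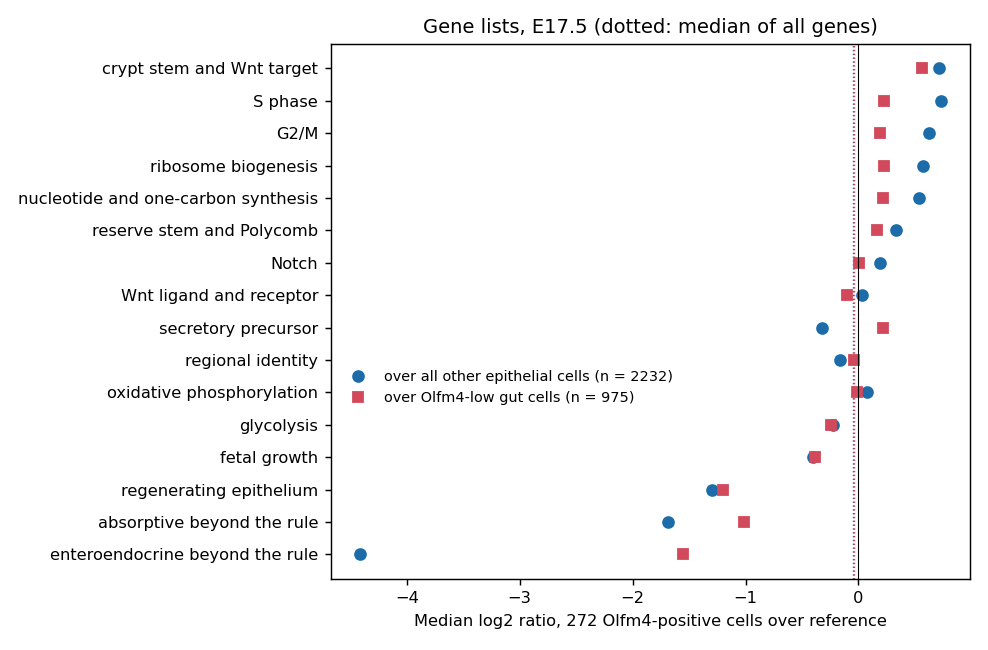
Median log2 ratio of 16 gene lists (x axis) in the 272 Olfm4-positive cells over all other epithelial cells (circles) and over the Olfm4-low gut cells (squares), with the median of all genes dotted. Of the 16 lists drawn, the stem and Wnt target list was highest in the narrower comparison at 0.56, whereas the S phase and G2/M lists lay at 0.22 and 0.19 and the absorptive and enteroendocrine lists at -1.02 and -1.56. Ratios are of summed UMIs, and the median cell had 92.2 CPM of the enteroendocrine list against 97.1 CPM in the Olfm4-low gut cells.

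Notch genes differed little. Hes1, the main Notch effector that represses secretory fate, was at 251 CPM (240 to 262) against 248 CPM (242 to 254) in the Olfm4-low gut cells. Notch1 was at 31.3 against 21.1 CPM, and Lfng, a glycosyltransferase that modifies Notch receptors, at 8.75 against 3.38 CPM. It was the only one of 12 Notch genes compared that was 2-fold higher, and the list's median was 0.01. Dll1, a Notch ligand of secretory precursors, was at 13.5 against 8.71 CPM, and Atoh1, the secretory fate factor, at 8.29 against 4.44 CPM. Part of both levels came from a few defensin-rich cells, described below, in which both genes stood higher. Neurog3, the endocrine fate factor, was at 7.25 against 9.88 CPM. The list of 12 secretory precursor genes had a median of 0.21, with 0 past 2-fold.

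Some secretory product RNAs lay in few Olfm4-positive cells and others were spread more widely. Of the 2603 Ghrl UMIs, which encode ghrelin, 91.4% lay in 5 cells, and of the 1104 Gcg UMIs, which encode glucagon and GLP-1, 95.4%. Of 1494 Defa24 UMIs, a Paneth cell defensin, 67.6% lay in 5 cells. The goblet cell product Tff3, a trefoil peptide, was less concentrated, with 24.4% of 3313 UMIs in 5 cells and UMIs in 109 cells. Sct, which encodes the hormone secretin, had 33.3% of 1628 UMIs in 5 cells and UMIs in 184. Cells in which gut hormones made up at least 0.5% of UMIs numbered 6 (2.21%), and cells with at least 20 UMIs of Defa24, Defa17 and Lyz1 numbered 12 (4.41%), limits set after the values were seen. The 12 defensin-rich cells had 3384 CPM of Defa24, 60.7 CPM of Atoh1, 53.4 CPM of Dll1 and 48.5 CPM of Lgr5, and the 254 cells in neither class had 12.3 CPM of Defa24 and 43.6 CPM of Lgr5. The Paneth list, which is not drawn in the plot of gene lists, had 3 of 4 genes 2-fold higher than in the Olfm4-low gut cells, with a median of 1.74. The Defa24 ratio named above rests on the 12 defensin-rich cells: without them Defa24 lay below the 56.1 CPM of the Olfm4-low gut cells, from which no such cells were removed.

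Several stem cell genes were higher in gut cells with more Olfm4 UMIs. Olfm4 counts per cell were small, so cells of unlike true level can share a class. The order over classes therefore cannot tell a gradient from a mixture of distinct cells. The Olfm4-positive and Olfm4-low gut cells were set in 6 classes with 0, 1 to 2, 3 to 4, 5 to 9, 10 to 19 and 20 or more Olfm4 UMIs, of 692, 198, 85, 103, 103 and 66 cells. Median depth was 26535.5 to 32027 UMIs per class. The 89 Spp1-rich cells were kept, and only 5 of them held an Olfm4 UMI. They had 4.80 CPM of Lgr5, 6.18 of Smoc2 and 35.0 of Slc12a2. Their part in the low levels of the class without Olfm4 was not tested. Lgr5 went from 9.68 CPM in cells without Olfm4 over 17.7, 29.0, 30.1 and 42.0 to 64.3 CPM in the highest class. Smoc2 went from 7.01 over 17.9, 24.3, 38.9 and 58.3 to 87.4 CPM, and Slc12a2 from 72.4 over 141, 168, 218 and 289 to 333 CPM. Each of the 3 was higher in every class than in the one before it, although the intervals overlapped in 3 steps. These were Lgr5 from 29.0 to 30.1 CPM and from 30.1 to 42.0 CPM, and Smoc2 from 17.9 to 24.3 CPM. Cdca7 and Ascl2 levelled off: Cdca7 stood at 48.0, 81.6, 102, 96.9, 128 and 118 CPM. H19 had the opposite order, at 1258, 818, 569, 554, 441 and 270 CPM, and Enpep went from 67.6 to 4.53 CPM. Hes1 stayed between 244 and 259.7 CPM and Bmi1 between 7.59 and 11.3 CPM, with no order by class. The classes also differed in the sex of their cells, given below. Cells with Xist and no Y-linked UMIs went from 38.3% in the lowest class to 73.0% in the highest. The part of this shift in the order of the genes was not tested.

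Cells on either side of the gate differ by a single Olfm4 UMI, so they cannot test for a step there, and their values are given as a description. The 39 cells with exactly 5 Olfm4 UMIs had 20.4 CPM of Lgr5, 31.8 of Smoc2 and 198 of Slc12a2, and the 39 with exactly 4 that passed the other gates had 33.8, 27.4 and 176 CPM. Within the Olfm4-positive cells, those with at least 20 UMIs were set against those with 5 to 9. Of 6275 genes 0.175% were 2-fold higher and 0.271% lower. Besides Olfm4 the higher genes included Smoc2, Lgr5 and Sfrp5, a secreted Wnt inhibitor, at 27.6 against 6.07 CPM. The lower ones included Mamdc4, an endosomal protein of the fetal enterocyte, at 26.3 against 70.2 CPM, Slc51a, a basolateral bile acid transporter subunit, at 14.5 against 36.7 CPM, and H19. The share with at least 3 G2/M UMIs after thinning was 98.5% and 99.0% in these classes. It was 98.8% in gut cells with 3 to 4 Olfm4 UMIs, 96.5% in those with 1 to 2 and 83.8% in those without Olfm4.

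**Figure D3:**
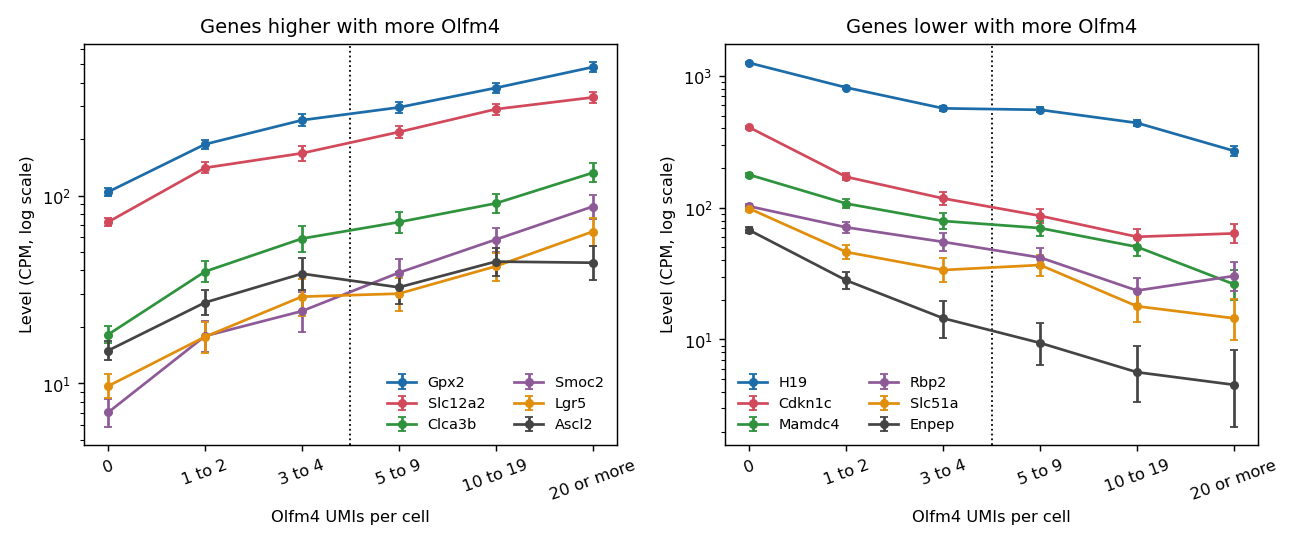
Level in CPM (y axis, log scale) of 6 genes that were higher and 6 that were lower with more Olfm4, in 6 classes of E17.5 gut cells by Olfm4 UMIs per cell (x axis). Bars are exact Poisson 95% intervals and the dotted line is the gate at 5 UMIs: Lgr5 stood at 9.68 CPM in the first class and 64.3 CPM in the last. The Spp1-rich cells were kept in the classes.

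The library held cells with transcripts of either sex, and the Olfm4-positive cells were not split between them like the reference. Xist, transcribed from the inactive X, was found without Y-linked UMIs (Ddx3y, Eif2s3y, Kdm5d, Uty) in 143 cells and Y-linked UMIs without Xist in 112, whereas 12 had both (4.41%, against 4.61% of other epithelial cells) and 5 neither. A doublet caller set to 0.8% per 1000 barcodes marked 4 of the 272 cells, or 1.47%, and 7.53% of the other epithelial cells, and they were kept. Cells with Xist alone made up 56.1% (49.8% to 62.3%) of those with 1 sex's transcripts, against 38.6% (35.4% to 41.8%) in the Olfm4-low gut cells. In cells past the chromogranin gate the share was 49.3% (44.4% to 54.2%) and in those past the enterocyte gate 44.6% (39.2% to 50.02%), and both intervals overlap that of the Olfm4-positive cells. By Olfm4 class the share was 38.3%, 39.4%, 39.0%, 47.4%, 53.7% and 73.0% (60.3% to 83.4%). It was 5.58% in the acinar cells. Sex, embryo, exact stage and dissection cannot be told apart here, since the labels do not give the number of embryos.

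The main differences were present in both sexes. The log2 ratio of Olfm4-positive over Olfm4-low gut cells was 1.61 in Xist cells and 1.71 in Y-linked cells for Lgr5, 2.39 and 2.26 for Smoc2, 1.33 and 1.55 for Slc12a2, and -1.50 and -1.17 for H19. These ratios pool the Olfm4 classes, and the order by class was not taken within each sex. Pigr and Cym differed between the sexes within the Olfm4-positive cells: Pigr was at 116 CPM in Xist and 43.6 CPM in Y-linked cells, and Cym at 448 and 95.2 CPM. A single Xist cell held 1082 of the Cym UMIs, and without it Cym was at 208.5 CPM in the Xist cells.

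**Figure D4:**
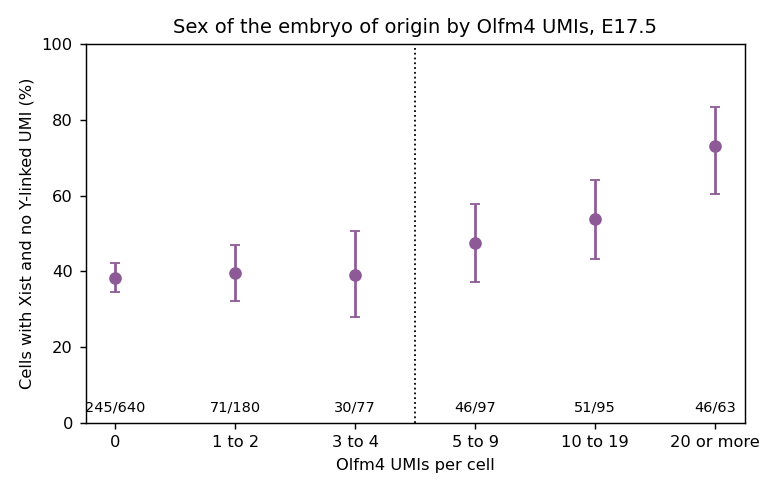
Share of cells with Xist and no Y-linked UMI (y axis, percent of cells with transcripts of 1 sex) in 6 classes of E17.5 gut cells by Olfm4 UMIs (x axis), with exact Clopper-Pearson 95% intervals and the cell numbers below. The share was 38.3% to 39.4% up to 4 Olfm4 UMIs and 73.0% at 20 or more.

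The same gates were applied to the other libraries. At E12.5 no cell of 3314 passed, which allows a share of up to 0.0905%, and the highest Olfm4 value there was 2 UMIs. In the adult 71 of 786 cells passed (9.03%, 7.12% to 11.3%), with a median of 107 Olfm4 UMIs, and in the irradiated adult 12 of 1391 (0.863%, 0.447% to 1.502%), with a median of 17. Median depth was 45564 UMIs in those of the adult, 70213 after irradiation and 30403.5 at E17.5, so the fixed UMI gates did not select at equal depth. The enterocyte, chromogranin and Muc2 gates also removed most of the sorted adult cells, and each share is one of a sorted library. Stage, library and batch cannot be told apart.

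The adult cells had more of several crypt genes, and the E17.5 cells carried fetal genes. Of 8910 genes compared, 6.3% were 2-fold higher at E17.5 and 4.31% lower. Of 25 stem and Wnt target genes 0 were 2-fold higher and 11 lower at E17.5, with a median of -0.95 beside 0.10 over all genes. Clca3b was at 94.4 CPM at E17.5 and 765 CPM in the adult, Smoc2 at 58.4 and 126 CPM, and Slc12a2 at 273 and 529 CPM. Lgr5 did not share that order, at 43.2 CPM (38.9 to 47.8) and 34.3 CPM (28.7 to 40.7). Igf2bp1 and H19 had 0 UMIs in the adult cells, against 40.2 and 440.5 CPM at E17.5. The 12 lowest genes at E17.5 included defensins such as Defa30, lysozyme (Lyz1), the lectin Itln1, the pentraxin Mptx2 and the antigen presentation genes Cd74 and H2-Eb1. Defa24 was at 11858 CPM in the adult cells and 56973 CPM in the other adult epithelial cells. The part of RNA from outside the cell in that value was not tested.

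Against the 3307 E12.5 cells that passed every gate but Olfm4, 8.46% of 13285 genes were 2-fold higher at E17.5 and 22.9% lower, around a median log2 ratio of -0.39. The highest included Jaml, Dmbt1, Spink4, Prap1 and Phgr1, which encode adhesion, mucosal and small epithelial proteins, and the lowest included Pth1r, Vcan, Mdk, Fn1 and Igfbp2. Lgr5 was at 8.08 CPM at E12.5, Ascl2 at 3.40 and Smoc2 at 1.23, all below the E17.5 cells, and Cdca7 was at 120.1 CPM, near their 114. Igf2bp1 was at 274 CPM and Hmga2 at 633 CPM at E12.5, above the 40.2 and 135 CPM of the E17.5 cells. Of the E12.5 cells 87.8% had at least 3 G2/M UMIs after thinning, of the adult cells 91.5% (82.5% to 96.8%).

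**Figure D5:**
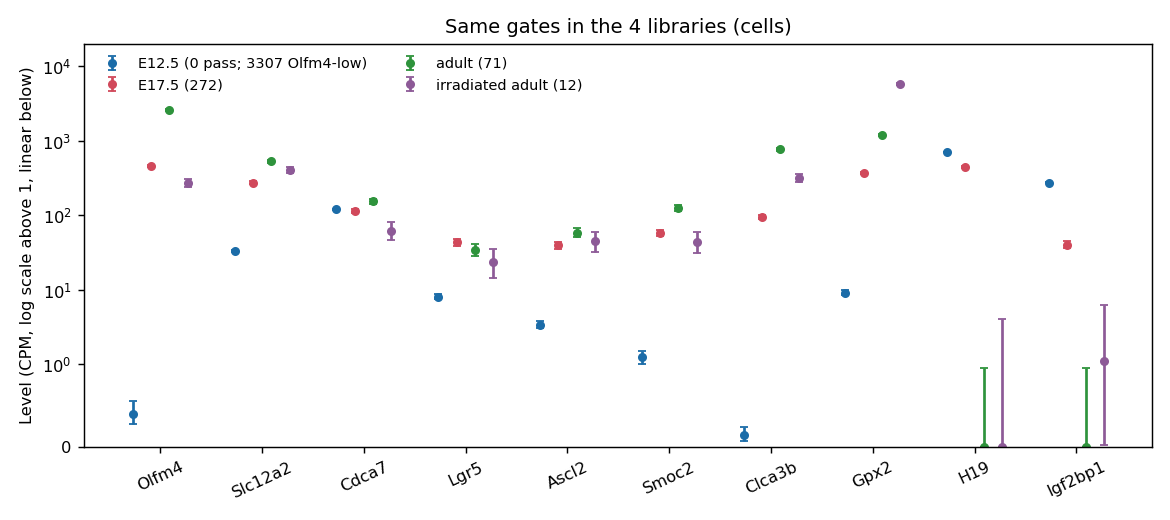
Level in CPM (y axis, log scale above 1 and linear below) of 10 genes in cells past the same gates of 4 libraries, with exact Poisson 95% intervals. At E12.5 no cell passed, so 3307 cells past the gates other than Olfm4 are shown, and H19 and Igf2bp1, found in both fetal sets, had 0 UMIs in the adult cells.

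No difference in Bmi1 or the reporter was detectable between the Olfm4-positive and the Olfm4-low gut cells at this depth. Bmi1, the Polycomb gene whose locus carries GFP, was at 8.75 CPM (6.89 to 10.9) against 8.28 CPM (7.25 to 9.42) in the Olfm4-low gut cells and 8.71 CPM in all other epithelial cells. The eGFP transcript had 7 UMIs in the 272 cells, or 0.806 CPM (0.324 to 1.66), against 0.817 CPM (0.518 to 1.23) in the Olfm4-low gut cells, so that a 2-fold difference would not be seen. It was at 23.3 CPM in the E12.5 cells. The list of reserve stem and Polycomb genes had a median of 0.17 over the Olfm4-low gut cells, with 0 of 15 past 2-fold. Hopx, a marker of slowly cycling stem cells in the adult crypt, was at 245 CPM (235 to 256) against 192 CPM (187 to 197).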

How the data were processed

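Cells of 4 libraries, 1 per group, were measured with a droplet 3' RNA kit, per the labels' protocols. The deposited files hold raw UMI counts of 31054 features per barcode, which the authors made with Cell Ranger 3.1.0 on mm10, per the submitters' processing notes. All columns were mapped, and 0 were left out as unmapped. The cells, gene lists and comparisons were chosen with earlier results of these data known. UMIs were summed over the cells of a set, divided by the set's total and given per 1000000 (CPM), with exact Poisson 95% intervals; shares of cells have exact Clopper-Pearson 95% intervals. Both cover counting error only, and the 3-count limit is used for values at 0. Genes with at least 50 UMIs in either set were compared, with 1 CPM added before the log2 ratio, and 2-fold was the call. Named genes were the 12 highest and 12 lowest by log2 ratio with at least 200 UMIs and a UMI in 10% of cells of the higher set, leaving out mitochondrial, ribosomal, haemoglobin, immunoglobulin, sex-linked, predicted and gating genes, and genes of the lists could be named too. Myb, Cps1 and eGFP were named outside this rule. The same rule was extended to the Olfm4-low gut and adult comparisons after their values were seen, as were the genes named by Olfm4 class. For E12.5, where no cell passed, cells past all other gates were used. Detection and G2/M shares were taken after thinning each cell to 10000 UMIs. With 1 library per group no test was made. Alternatives covered gates, depth, thinning, pseudocount, gene minimum, scaling by edgeR 4.0.16 in R 4.3.3, doublet removal with Scrublet in scanpy 1.11.5, and the reference; those on other tissues, sex, hormone-rich, defensin-rich and Spp1-rich cells were added after seeing the data. Calculations used Python 3.11.15, numpy 2.4.6, scipy 1.17.1 and pandas 2.3.3, checked on simulated counts. Promoter windows are from RefSeq, GRCm38.p6.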

Additional observations from a re-analysis of the deposited data

How the results depend on the processing

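The share of Olfm4-positive cells, 10.9%, depended on the gates. It was 14.3% with a minimum of 3 Olfm4 UMIs and 6.75% with 10, 7.16% with a depth minimum of 5000 UMIs and 15.7% with 20000, 5.35% with gates on thinned cells and 13.2% without other tissues. The share with G2/M RNA was 94.1% at 5 UMIs and 99.6% without thinning, and in other epithelial cells 68.19% at 2 UMIs, 56.81% at 5, 70.3% without thinning and 65.5% without other tissues.

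Against other epithelial cells, 66 genes were 2-fold higher, or 106 with 0.1 CPM added, 25 with 10 CPM added and 129 with means of each cell's CPM. The 1404 lower genes numbered 296 with 10 CPM added and 897 with a 200-UMI minimum. Against all Olfm4-low cells, the 52 higher genes numbered 21 with 10 CPM added and 33 with a 200-UMI minimum. The 751 lower genes numbered 185 and 394 under those settings and 416 without other tissues. Also without other tissues, they numbered 292 in Xist cells, 380 in Y-linked cells, 450 without hormone-rich and defensin-rich cells, and 241 without Spp1-rich cells. The median log2 ratio of the acinar list reversed from -5.92 to 0.34 without other tissues. That setting removed acinar-rich cells from the reference but kept the Olfm4-positive cell with 1.94% acinar UMIs. Over these shares and counts of genes, 35 alternative values lay within the 95% interval of the share or within 1.5 times the count, and the 26 printed here did not. No paired analysis was possible because each group has 1 library. Genes under 50 UMIs were not compared, and 12 irradiated cells give wide intervals.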
